A study of Mus musculus with 6 samples.

Results

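A small population of Dlx-expressing nuclei with markers of young neurons was examined in single-nucleus RNA-seq of the mouse brain. Nuclei were selected by their counts of unique molecular identifiers (UMIs, each standing for 1 captured RNA molecule). A selected nucleus had at least 3 UMIs of Dlx6os1, Dlx1 and Dlx2 together, at least 3 of Dcx and Sox11 together, and at least 1 of Sp8 or Sp9. It had no UMI of the proliferation genes Top2a and Mki67, at most 1 of the striatal receptor genes Drd1, Drd2 and Adora2a, and at most 1 of the myelin genes Mog and Mag. This rule found 79 of 60724 nuclei that passed quality filtering, or 0.130%, and these 79 are called the selected nuclei below.

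The nuclei came from 6 libraries, 3 from mice injected with lysophosphatidic acid (LPA), a signaling lipid of blood used to model hydrocephalus after hemorrhage, and 3 from mice injected with vehicle. C57BL/6 S-56 neonates received LPA in its bovine serum albumin carrier, or the carrier alone, into the lateral ventricle at postnatal day 7 (P7) and brains were collected at P15. Brains without the olfactory bulbs and cerebellum were frozen, and nuclei negative for NeuN, the protein of Rbfox3 found in most mature neurons, were sorted and made into droplet libraries (10x Genomics, 3′ v3 chemistry). The LPA concentration injected for these 6 libraries is not given in the sources used here. The study describes its per-sample values as those of individual mice.

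DLX homeobox factors direct the ventral forebrain lineages that produce GABAergic neurons. In the postnatal brain, DLX-positive progenitors of the ventricular-subventricular zone give rise to neuroblasts that express the microtubule protein DCX and migrate in chains to the olfactory bulb, where they become granule and periglomerular interneurons. SP8 and SP9 are zinc finger factors of this lineage, SOX11 is a factor of newborn neurons, and SP9 is also needed for striatal neurons that express Drd2.

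The rule chose the nuclei from measured counts, so the levels of its own genes are a description. The 79 nuclei held 367 UMIs of Dlx6os1 in 78 nuclei, 60 of Dlx1 in 39 and 5 of Dlx2 in 5. Dcx gave 227 UMIs in 76 nuclei and Sox11 gave 74 in 41. Sp8 gave 36 UMIs in 27 nuclei, and Sp9 gave 65 in 56. Thus Dlx6os1 (chr6:6820189-6871592, minus strand, an antisense RNA of the Dlx5 and Dlx6 locus), Dcx (chrX:143855842-143933311) and Sp9 (chr2:73271925-73284706) chose most of the nuclei, while Sp8 (chr12:118846329-118852576) marked a smaller subset (GRCm38 coordinates). Sp8 was found without Sp9 in 23 nuclei, Sp9 without Sp8 in 52, and both in 4.

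Many of the nuclei lay at the edge of the rule. The Dlx sum was exactly 3 in 26, the Dcx and Sox11 sum was exactly 3 in 45, the Sp8 and Sp9 sum was exactly 1 in 61, and all 3 were at their minimum in 9. Just outside, 26 nuclei missed only by a Dlx sum of 2, 51 only by a Dcx and Sox11 sum of 2, and 282 only because neither Sp8 nor Sp9 had a UMI. A further 1 nucleus was excluded by 1 UMI of Top2a or Mki67, 8 by 2 UMIs of the striatal receptors, and 8 by 2 UMIs of Mog and Mag. Of the 60724 nuclei, 2967 had the Dlx sum, 642 of these also had the Dcx and Sox11 sum, and 169 of these had a UMI of Sp8 or Sp9. The limits on proliferation, striatal and myelin genes then left 152, 118 and 79.

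A UMI of Sp8 or Sp9 was found in 79 of 361 nuclei (21.9%, median 7213 UMIs) that met every other part of the rule. For background, the share was 130 of 12179 (1.07%, median 5844 UMIs) among oligodendrocyte nuclei, taken as those with at least 3 UMIs of Mog and Mag. It was 203 of 1363 (14.9%, median 6871 UMIs) among striatal projection neurons, taken as nuclei with at least 3 UMIs of Drd1, Drd2 and Adora2a and low Dcx and Sox11. Nearly all of the striatal share was Sp9 (14.7% of nuclei), beside 15.5% of the 361 nuclei. Sp8 was found in 7.48% of the 361 nuclei, 0.220% of striatal neurons and 0.156% of oligodendrocytes.

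The depth of the group was small, and levels are given as CPM, the UMIs of a gene divided by all UMIs summed over a group of nuclei and scaled to 1000000. The selected nuclei held 599211 UMIs in all, with a median of 6214 per nucleus (1445 to 29311), while library totals ran from 48852970 to 65688644 UMIs. Summed counts per library were 56138, 192492 and 78476 UMIs for LPA replicates 1 to 3 and 90651, 86580 and 94874 for vehicle replicates 1 to 3. A gene with no UMI in LPA replicate 1 could still have been present at up to 53.4 CPM, and in LPA replicate 2 at up to 15.6 CPM. These limits, and all intervals below, cover counting error only.

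Other markers of young neurons gave an uneven picture. Igfbpl1, a marker of migrating neuroblasts, had 38 UMIs in all and stood at 63.4 CPM in the selected nuclei against 8.79 in striatal neurons and 14.1 in all other nuclei. Its library values were 107, 88.3 and 38.2 CPM with LPA and 110, 23.1 and 0 CPM with vehicle, so it was above all other nuclei in 5 of 6 libraries and had no UMI in vehicle replicate 3. Stmn1, a microtubule regulator of growing neurites, stood at 86.8 CPM against 20.7 in striatal neurons, and Sox4, the partner factor of Sox11, at 63.4 against 24.0. Both were above striatal neurons in 6 of 6 libraries. In contrast, Cd24a, a surface marker of migrating neuroblasts, had only 2 UMIs.

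Genes of mature neurons were present as well. Rbfox3, which encodes the protein used for the sort, was detected in 60 of 79 nuclei at 419 CPM, with library values of 267, 462 and 344 CPM with LPA and 386, 543 and 401 CPM with vehicle. Striatal neurons of the same sort had 489 CPM and all other nuclei 169. Nrxn3, a presynaptic adhesion gene, stood at 9805 CPM in the selected nuclei, 7546 in striatal neurons and 2979 in all other nuclei. Camk2a, a kinase of mature synapses, stood at 329 CPM, below the 463 CPM of striatal neurons and above the 199 CPM of all other nuclei. Of 31 maturation and synapse genes, 9 were higher in the selected nuclei than in striatal neurons, and the median log2 ratio was -0.33, against 0.14 over the 8429 genes with at least 10 UMIs.

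To compare nuclei at 1 depth, each was thinned to 2000 UMIs, which left 77 of the 79. Rbfox3 then had a UMI in 55.8% of the selected nuclei, 60.5% of striatal neurons, 46.5% of the 282 Dlx Dcx nuclei without Sp8 or Sp9 (the Sp8/Sp9-negative nuclei), and 4.66% of oligodendrocytes. Without thinning it was found in 75.9% of the selected nuclei. The nuclei chosen by neuroblast markers therefore carried the RNA of the mature neuron marker Rbfox3 at a share far above the oligodendrocyte background, and the name neuroblast was borne out by some of its markers and not by others. Lhx6, a factor of medial ganglionic eminence interneurons, was found in 4 of the 79 nuclei without thinning (5.06%) and in 0 of the 77 at 2000 UMIs per nucleus, so it was rare and at the limit of this depth.

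Cell cycle genes outside the rule were measured next. Of 26 such genes, 21 had a UMI in the selected nuclei, with 158 UMIs in all, and Ccnb1, Cdk1, Aurka, Aurkb and Rrm2 had none. The list summed to 264 CPM in the selected nuclei (178 to 570 over the 6 libraries, the highest in LPA replicate 1), 153 CPM in striatal neurons and 227 CPM in all other nuclei. Its most abundant member was Ezh2, a histone methyltransferase that is not confined to dividing cells, at 78.4 CPM. The cycling Dlx nuclei of the series, with at least 2 UMIs of Top2a and Mki67, numbered only 21, or 2 to 5 per library, and summed to 1103 CPM for the same list. That gap follows in part from the selection, since the rule allowed no UMI of Top2a and Mki67 in the selected nuclei.

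Genes of the olfactory bulb interneuron lineage were measured next. Since the rule made these contrasts, they are given without a test. Of 20 genes of this lineage, 19 stood higher in the selected nuclei than in striatal neurons, with a median log2 ratio of 1.07. Against all other nuclei 14 of the 20 stood higher (median 0.71), beside 13 of 16 GABA genes (0.72) and 25 of 31 maturation and synapse genes (0.67). The list was chosen with earlier results of these data known.

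Meis2 (chr2:115863064-116065839, minus strand), a TALE homeobox factor kept through the differentiation of olfactory bulb neurons and also expressed by striatal neurons, stood at 2285 CPM, against 1931 in striatal neurons, 1381 in the Sp8/Sp9-negative nuclei and 527 in all other nuclei. In single libraries it stood at 1817, 2478 and 3046 CPM with LPA and at 1423, 2033 and 2593 CPM with vehicle, above all other nuclei in 6 of 6 libraries and above striatal neurons in 4. Pbx3, a TALE homeobox partner of Meis factors, stood at 1347 CPM against 557 in striatal neurons and 334 in all other nuclei, and was above striatal neurons in 5 of 6 libraries. Meis2 and Pbx3 were thus both more abundant in the selected nuclei than in all other nuclei in every library.

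Tshz1, a zinc finger factor required for olfactory bulb interneurons and also found in striatal patch neurons, stood at 391 CPM against 87.8 in striatal neurons, 230 in Sp8/Sp9-negative nuclei and 108 in all other nuclei. Its library values were 445, 410 and 446 CPM with LPA and 375, 393 and 285 CPM with vehicle. Pax6 (chr2:105668900-105697364), the factor of dopaminergic periglomerular cells, rested on 39 UMIs and stood at 65.1 CPM against 6.76 in striatal neurons, 34.6 in Sp8/Sp9-negative nuclei and 23.7 in all other nuclei. Tshz1 and Pax6 were both above striatal neurons in 6 of 6 libraries.

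**Figure D1:**
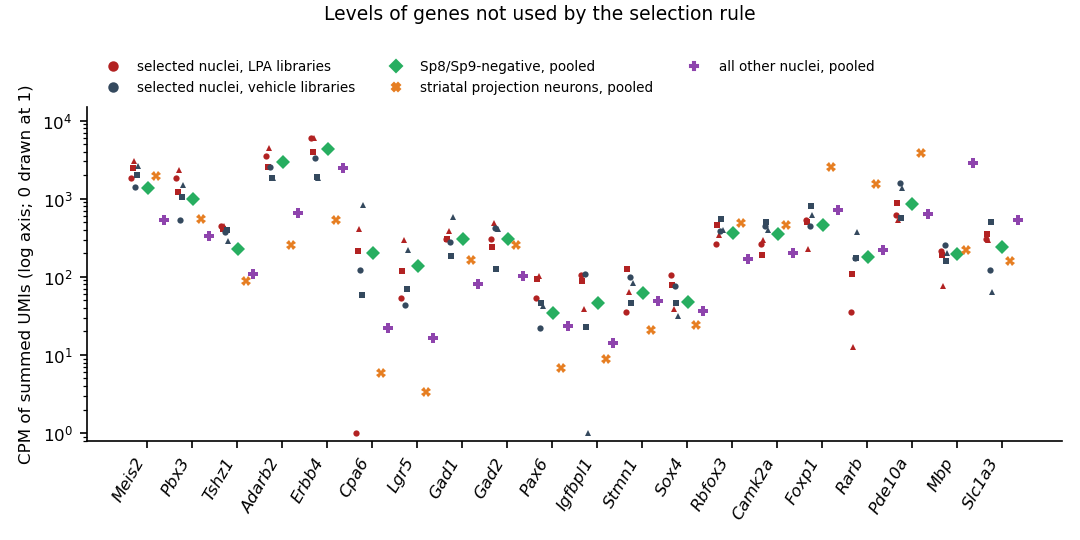
CPM of genes outside the rule on a log axis (0 is drawn at 1), with small points for the selected nuclei of each LPA (red) or vehicle (dark blue) library and large symbols for the pooled nuclei of the other populations. Meis2, Pbx3 and Tshz1 sat above all other nuclei in all 6 libraries, while Foxp1 and Rarb sat below striatal projection neurons in all 6.

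At matched depth Meis2, Tshz1 and Pax6 gave shares above the oligodendrocyte background. Meis2 had a UMI in 85.7% of thinned selected nuclei against 93.4% of striatal neurons, 64.1% of Sp8/Sp9-negative nuclei and 16.2% of oligodendrocytes. Tshz1 had one in 46.8%, against 14.3%, 35.2% and 13.4%. Pax6 had one in 10 of 77 selected nuclei, against 1.10%, 6.23% and 1.41%. Tshz1 and Pax6 thus had their highest share of the 4 populations in the selected nuclei, with no test. Foxp2, a forkhead factor of striatal and intercalated neurons, was found in 37.7% of selected nuclei and in 46.9% of striatal neurons. Prox1 was found in 6.49% of selected nuclei, 1.40% of striatal neurons, 11.7% of Sp8/Sp9-negative nuclei and 22.1% of oligodendrocytes. Isl1 was found in 2 thinned nuclei (2.60%) and in 3 of 79 without thinning. Nr2f2 was found in 1 thinned nucleus (1.30%), against 9.16% of Sp8/Sp9-negative nuclei, 1.77% of striatal neurons and 2.85% of oligodendrocytes, but in 13 of the 79 (16.5%) without thinning.

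Terminal markers of olfactory bulb interneurons were rare. Calb2, the calretinin gene of granule and periglomerular cells, had 19 UMIs (31.7 CPM, against 4.93 in striatal neurons), and Th, which encodes the rate-limiting enzyme of dopamine synthesis, had 8 UMIs (13.4 CPM, against 1.55). Synpr, a synaptic vesicle protein of granule cells, was more abundant at 497 CPM against 155. Its library values were 392, 239 and 752 CPM with LPA and 463, 196 and 1181 CPM with vehicle, a wide spread within each condition.

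Genes of GABA synthesis were above their level in all other nuclei. Gad1, which encodes a glutamate decarboxylase, stood at 337 CPM against 162 in striatal neurons and 80.0 in all other nuclei, and was above all other nuclei in 6 of 6 libraries. Gad2, the second glutamate decarboxylase gene, stood at 317 CPM against 254 and 102. Slc32a1, the vesicular GABA transporter, stood at 58.4 CPM, near the 68.3 CPM of striatal neurons and above the 24.3 CPM of all other nuclei. By contrast, Gabrg3, a GABA receptor subunit, stood at 1108 CPM against 2768 in striatal neurons, and was lower in all 6 libraries.

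Among genes outside the rule with at least 100 CPM, the largest ratios over striatal neurons were those of Cpa6 (carboxypeptidase A6) and Lgr5 (a receptor for R-spondins). Cpa6 (chr1:10324720-10719945, minus strand) stood at 282 CPM against 5.80 in striatal neurons, 203 in Sp8/Sp9-negative nuclei and 22.0 in all other nuclei. It had 0, 213 and 408 CPM in the LPA libraries and 121, 57.8 and 843 CPM in the vehicle libraries, and its UMIs came from 20 nuclei. Lgr5 (chr10:115450311-115587780, minus strand) stood at 134 CPM against 3.38, 137 and 16.3, with UMIs in 25 nuclei. Both genes were thus also abundant in the Dlx Dcx nuclei without Sp8 or Sp9. Chrm2 (a muscarinic acetylcholine receptor, 217 CPM against 17.6), Ppm1e (a protein phosphatase, 923 against 80.3), Adarb2 (2669 against 257), Gng4, Dach2, Nxph1, Hs3st2 and Vwc2 made up the rest of the 10 largest. Without vehicle replicate 3, Cpa6 stood at 176 CPM, Chrm2 at 121 and Hs3st2 at 61.5.

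Several genes of striatal projection neurons were among the 10 most depleted relative to striatal neurons. Ppp1r1b, which encodes DARPP-32, stood at 5.01 CPM against 155, Penk, the enkephalin precursor, at 18.4 against 193, and Rarb, a retinoic acid receptor of the striatum, at 152 against 1525. Rgs9, Gng7 and Pde1b, all signaling genes of striatal neurons, stood at 75.1, 55.1 and 30.0 CPM against 724, 579 and 320. The other 4 of the 10 were Mhrt, with 2 UMIs (3.34 CPM against 148), the myosin gene Myo3b (13.4 against 208), Gm10754 (a log2 ratio of -3.67 to 319 CPM) and Gm15810 (11.7 against 122). Of the 15 genes on the striatal projection lineage list, 7 stood above striatal neurons and the median log2 ratio was -0.36. Foxp1, a forkhead factor of projection neurons on that list, stood at 522 CPM against 2534 and was lower in 6 of 6 libraries. Since the rule limited Drd1, Drd2 and Adora2a, lower levels of genes that accompany them follow in part from the selection.

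The population closest by the rule was the 282 Sp8/Sp9-negative nuclei. The largest ratios over it among genes of at least 100 CPM were Mecom (154 CPM against 44.7), Dach2 (123 against 39.2), Slc6a20a (120 against 41.3) and Ptgds (174 against 70.4). Mecom and Slc6a20a are on the list of vascular and meningeal markers, and Ptgds encodes a prostaglandin synthase abundant in the meninges. Of the 72 UMIs of Slc6a20a and the 104 of Ptgds, 52 and 94 lay in vehicle replicate 2. Without that library the selected nuclei held 39.0 and 19.5 CPM of the pair. The Sp8/Sp9-negative levels of 41.3 and 70.4 CPM still include vehicle replicate 2 and were not recomputed without it. Of the 74 UMIs of Dach2, 44 lay in vehicle replicate 1, without which it stood at 59.0 CPM. Mecom stood at 125 CPM without LPA replicate 3, but its 92 UMIs came from 6 nuclei. Zfp804a (129 CPM against 386) and Cntnap5a (232 against 595) were the most depleted. Kcnc2, a potassium channel of fast-spiking interneurons, stood at 456 CPM against 889.

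The cortical interneuron list was led by Adarb2 and Erbb4, which were abundant in both kinds of Dlx Dcx nuclei. Adarb2 (chr13:8202866-8768747), an RNA editing enzyme family member that marks interneurons of the caudal ganglionic eminence, stood at 2669 CPM in the selected nuclei and 2933 in Sp8/Sp9-negative nuclei, against 257 in striatal neurons. Erbb4 (chr1:68032186-69108059, minus strand), a neuregulin receptor of migrating interneurons, stood at 3675 and 4279 CPM against 535. Of the 20 genes of this list, 16 were above striatal neurons, with a median log2 ratio of 0.41, and 12 were above all other nuclei, with a median of 0.05. Erbb4 and Adarb2 made up most of the 7612 CPM to which the list summed. Sp8 and Sp9 are also expressed by interneurons of the cortex, and nuclei of all regions other than the olfactory bulbs and cerebellum were pooled in each library, so region of origin cannot be told apart from these counts.

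Nuclei with Sp8 and those with Sp9 were then set side by side, as a description with counting intervals, since the rule used both genes. The 23 nuclei with Sp8 alone held 153538 UMIs and the 52 with Sp9 alone held 425822. Pax6 stood at 150 CPM (95% interval 95.0 to 225) with Sp8 alone and 37.6 CPM (21.5 to 61.0) with Sp9 alone. Etv1, an ETS factor of olfactory bulb interneurons, stood at 293 (214 to 392) and 101 CPM (73.1 to 136). Pax6 had a UMI in 8 of the 23 and 13 of the 52 nuclei, and Etv1 in 14 and 20. Of the 39 Pax6 UMIs of all selected nuclei, 8 lay in 1 nucleus of LPA replicate 2, which supplied 9 of the 23 nuclei with Sp8 alone. Pax6 and Etv1 thus had higher pooled CPM in the nuclei with Sp8, and Synpr stood at 684 against 425 CPM in the same direction.

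In the nuclei with Sp9 alone the levels of another set were greater. Tshz1 stood at 458 CPM against 234 in those with Sp8 alone, Adarb2 at 3105 against 1505, Erbb4 at 4215 against 2553, and Foxp2 at 676 against 410. Rbfox3 stood at 456 CPM against 293. A UMI of Tshz1 was found in 38 of the 52 nuclei with Sp9 alone and in 14 of the 23 with Sp8 alone. These counts were 44 and 18 for Adarb2, 50 and 23 for Erbb4, 24 and 11 for Foxp2, and 42 and 15 for Rbfox3. Six3, a homeobox factor of striatal neurons that express Drd2, had 7 UMIs in the nuclei with Sp9 alone and 0 in those with Sp8 alone. Its counting intervals overlapped, at 6.61 to 33.9 and 0 to 24.0 CPM. Foxp1, a forkhead factor of projection neurons, went the other way. It stood at 697 CPM (counting interval 571 to 842) with Sp8 alone and at 467 CPM (405 to 537) with Sp9 alone. Meis2 was abundant in both, at 2132 CPM with Sp9 alone and 2683 with Sp8 alone, and Gad1 was alike at 331 and 352. Nuclei of 1 library share its depth and its free RNA, and no replicate test of these differences was made.

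Clustering of the selected nuclei on genes other than those of the rule gave 3 sub-clusters, which are called by number. Sub-cluster 1 held 37 nuclei (5, 12 and 4 from LPA replicates 1 to 3, and 9, 2 and 5 from vehicle replicates 1 to 3). It was led by the factor gene Zfhx3 (442 CPM against 56.4 in the other selected nuclei), Pld5, the cadherin gene Cdh13 and Phactr1. The next of its leading genes, Dnah12, is a dynein of motile cilia and came almost wholly from 1 nucleus, with 35 of 38 UMIs. The ependymal and choroid plexus markers, which include Dnah12, summed to 583 CPM in sub-cluster 1, against 106 and 140 CPM in sub-clusters 2 and 3. Over all selected nuclei this list was led by Htr2c at 170 CPM. Striatal neurons held 493 CPM of the same list.

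Sub-cluster 2 held 25 nuclei (2, 6 and 6 from LPA, and 1, 2 and 8 from vehicle) of lower depth, with a median of 4263 UMIs. It was led by Cpa6 (1031 CPM against 90.2), Adamtsl1 (646 against 65.0), the long noncoding RNA C130073E24Rik, the RNA-binding protein gene Pcbp3 (1612 against 256) and Cpne6. Meis2 was found in 25 of its 25 nuclei, Tshz1 in 21 and Gad1 in 22. None of its nuclei was called a doublet by Scrublet, which scores barcodes against simulated pairs of nuclei. The 13 astrocyte markers summed to 2111 CPM in it, against 675 in sub-cluster 1 and 4373 in sub-cluster 3.

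Sub-cluster 3 held 17 nuclei (2, 7 and 2 from LPA, and 1, 4 and 1 from vehicle) with the highest median depth, 10416 UMIs. Among its leading genes were Mecom (424 CPM against 2.60), Ptgds (470 against 7.80), Ebf1 (345 against 0) and Flt1 (233 against 0), the VEGF receptor of endothelium. The 14 vascular and meningeal markers summed to 1644 CPM there, against 103 and 123 in sub-clusters 1 and 2. A UMI of Ebf1 was found in 10 of the 17 nuclei, of Flt1 and Ptgds in 6 each and of Mecom in 5, so that part of the nuclei carried each gene. Dlx6os1 was found in 17, Meis2 in 16 and Gad1 in 14, and Scrublet called 12 of the 17 doublets, against 4 of 37 and 0 of 25.

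**Figure D2:**
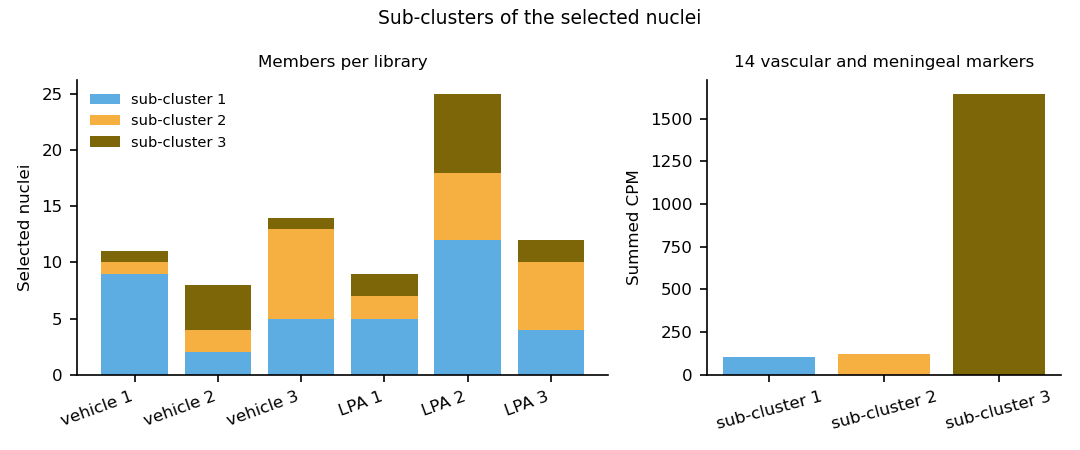
Left, the number of selected nuclei per library by sub-cluster; right, the summed CPM of 14 vascular and meningeal markers in each sub-cluster. Sub-cluster 3 (brown) held 17 of 79 nuclei, 7 of them in LPA replicate 2, and carried 1644 CPM of these markers against 103 and 123.

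Markers of other cell types were measured over all 79 nuclei. The 11 oligodendrocyte markers summed to 656 CPM against 7546 in all other nuclei, led by Mbp at 185 CPM, and all 11 had a UMI. The 13 astrocyte markers summed to 2293 against 4194, led by Slc1a2 at 951, and the 9 oligodendrocyte precursor markers to 753 against 1101, led by Lhfpl3 at 496. The rule limited Mog and Mag, so a low oligodendrocyte sum follows in part from the selection, and the striatal neurons held 636 CPM of the oligodendrocyte and 1919 of the astrocyte markers. The microglia and macrophage list summed to 140 CPM against 300 (led by Cx3cr1), the ependymal and choroid plexus list to 327 against 620 (led by Htr2c), and the vascular and meningeal list to 659 against 849 (led by Mecom). The glutamatergic list summed to 294 against 271, led by Tafa1 at 239, with Neurod6 and Eomes at 0.

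The vascular and meningeal sum was 623, 525 and 854 CPM in the LPA libraries and 276, 1594 and 306 CPM in the vehicle libraries, and the astrocyte sum was 1265, 2966 and 2319 CPM with LPA and 1434, 4089 and 696 CPM with vehicle. Vehicle replicate 2, with 8 selected nuclei of which 4 were in sub-cluster 3, had the highest of both sums. At least 3 UMIs of 44 astrocyte, precursor, microglial and vascular markers, counted without Slc1a2 and Slc1a3, were found in 69 of the 79 nuclei. Of these 44, those that contributed most were Lhfpl3 (297 UMIs in 49 nuclei) and Slc4a4 (281 in 59). The share of nuclei with 3 such UMIs was not measured in other populations. In striatal neurons and Sp8/Sp9-negative nuclei, the full astrocyte list summed to 1919 and 2152 CPM, against 2293 in the selected nuclei. The precursor list summed to 566 and 694 CPM against 753, and the vascular and meningeal list to 303 and 439 against 659. Scrublet called 16 of the 79 nuclei doublets, while it called 16.2% to 19.6% of all nuclei per library.

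LPA acts through G protein-coupled receptors, and the genes of this pathway were sparse in the selected nuclei. Lpar1, which encodes an LPA receptor of progenitors and myelinating glia, had 13 UMIs (21.7 CPM against 119 in all other nuclei), spread over 5 libraries. Lpar2, Lpar3 and Lpar5 had no UMI, Lpar4 had 1 and Lpar6 had 5. Plpp3, a phosphatase that degrades LPA, stood at 224 CPM against 370 in all other nuclei. Plppr1 and Plppr4, membrane proteins related to these phosphatases in neurons, stood at 179 and 137 CPM against 158 and 61.6. Receptor levels in single libraries were at or near the limit of depth, so a difference between conditions was not detectable.

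The first question between the conditions was whether LPA injection changed the share of the selected nuclei. They made up 0.106%, 0.244% and 0.132% of nuclei in LPA replicates 1 to 3 (9 of 8525, 25 of 10266 and 12 of 9102) and 0.136%, 0.0645% and 0.114% in vehicle replicates 1 to 3 (11 of 8102, 8 of 12410 and 14 of 12319). The groups overlapped, with LPA replicate 2 the highest and vehicle replicate 2 the lowest. The mean was 0.160% ± 0.0733 with LPA and 0.105% ± 0.0365 with vehicle (SD, n = 3 each), and the difference of 0.0557 percentage points did not pass the exact two-sided permutation test (p = 0.5). The smallest p that 3 against 3 libraries allow is 0.1, and without LPA replicate 2 the difference was 0.0141. Exact 95% binomial intervals of the single shares ran from 0.158% to 0.359% in LPA replicate 2 and from 0.0278% to 0.127% in vehicle replicate 2.

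Shares against related populations gave the same outcome. Among nuclei with at least 3 Dlx UMIs, the selected nuclei were 3.08% ± 1.70 with LPA and 2.27% ± 0.640 with vehicle (SD, n = 3, exact permutation p = 0.7). The log2 ratio of selected nuclei to striatal projection neurons was -3.94 ± 0.816 with LPA and -4.48 ± 0.287 with vehicle (n = 3, exact permutation p = 0.4). The log2 ratio to Sp8/Sp9-negative nuclei was -1.95 ± 0.872 and -1.78 ± 0.412 (n = 3, exact permutation p = 0.8), and that to cycling Dlx nuclei was 1.92 ± 0.936 and 1.89 ± 0.528 (n = 3, exact permutation p = 1). None of the 4 passed the test, and the last rests on 2 to 5 cycling nuclei per library. In these shares, fewer selected nuclei and less RNA of the marker genes per nucleus cannot be told apart.

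Whether the groups overlapped varied with the thresholds. With at least 2 UMIs in place of 3 for both sums, 194 nuclei were chosen and made up 0.375%, 0.448% and 0.330% of nuclei with LPA and 0.296%, 0.210% and 0.292% with vehicle. When neither Sp8 nor Sp9 was required, a setting added after the data were seen, 361 nuclei made up 0.680%, 0.711% and 0.857% with LPA and 0.481%, 0.290% and 0.625% with vehicle. In both of these settings every LPA library lay above every vehicle library, by 0.118 and 0.284 percentage points in the mean (n = 3, exact permutation p = 0.1 each, the smallest possible). The rule counts UMIs, and depth differed between the groups. Striatal neurons had median depths of 7476, 7157 and 7650.5 UMIs with LPA and 6869, 6421.5 and 5736.5 with vehicle. Medians of all nuclei kept overlapped, at 4751, 4173.5 and 4838 against 4742.5, 4281 and 3860. More nuclei and deeper nuclei cannot be told apart at these 2 settings. When nuclei were thinned to 2000 UMIs before the rule was applied, 11 were chosen (3, 4 and 3 with LPA and 0, 0 and 1 with vehicle). They made up 0.0387%, 0.0439% and 0.0361% of nuclei with LPA and 0%, 0% and 0.00929% with vehicle, a difference of 0.0365 percentage points (n = 3, exact permutation p = 0.1). Among thinned Dlx nuclei the shares were 3.13%, 3.23% and 3.16% against 0%, 0% and 0.769%, a difference of 2.91 points (n = 3, exact permutation p = 0.1), so at matched depth the groups did not overlap, on 11 nuclei in all. When sub-cluster 3 was left out, also after the data were seen, the 62 remaining nuclei made up 0.0821%, 0.175% and 0.110% with LPA and 0.123%, 0.0322% and 0.106% with vehicle, and the groups overlapped again (n = 3, exact permutation p = 0.5).

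**Figure D3:**
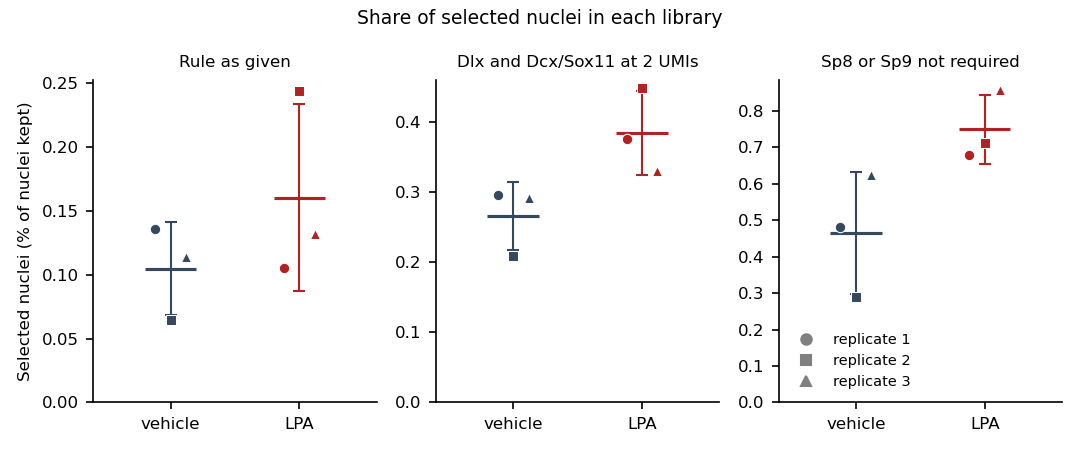
Selected nuclei as a percent of nuclei kept in each library (points; the shape gives the replicate number), with the mean (horizontal bar) and SD (error bar) of 3 libraries per condition, for the rule as given, for minimums of 2 UMIs and with Sp8 and Sp9 not required. The groups overlapped under the rule as given and did not under the looser settings.

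The second question was whether genes of the selected nuclei changed with LPA. UMIs were summed per library and tested with edgeR's quasi-likelihood test over 1903 genes. No gene passed an adjusted p of 0.05 (0 called, 0%), and the lowest adjusted p was 0.896 (Benjamini-Hochberg). At an unadjusted p under 0.05 there were 79 genes (4.15%), 40 of them higher with LPA, and DESeq2 called 0 genes with 42 under 0.05 unadjusted. CPM of the groups did not overlap for 187 genes (9.83%). The median SE of a log2 fold change was 0.37. The values below are therefore given as measurements that did not pass the test. Without a filter on low counts, 16 of 16269 genes were called, among them Hs3st2 (edgeR adjusted p = 0.000207), 2610307P16Rik (0.0287), Gfra1 and Rarb (0.0368 each).

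The 5 genes of lowest p with greater levels in the LPA libraries were Gfra1, Ubash3b, Erbb4, 2610307P16Rik and Pakap. Gfra1, the co-receptor for the neurotrophic factor GDNF, stood at 214, 177 and 115 CPM with LPA and at 33.1, 34.7 and 31.6 CPM with vehicle (log2 fold change 2.27, SE 0.47, edgeR adjusted p = 0.896). All LPA libraries lay above all vehicle libraries, with 3 UMIs in each vehicle library. However, its 64 UMIs came from 16 nuclei, 2 of 9, 6 of 25 and 1 of 12 with LPA and 3 of 11, 2 of 8 and 2 of 14 with vehicle. All UMIs of LPA replicate 3 thus lay in 1 nucleus, and 16 of the 64 lay in 1 nucleus of LPA replicate 2. Erbb4 stood at 6057, 3943 and 5913 CPM with LPA and at 3342, 1883 and 1823 CPM with vehicle (log2 fold change 1.15, SE 0.33, edgeR adjusted p = 0.986). This receptor was the most abundant of the 5 and its groups also did not overlap.

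Ubash3b, a phosphatase of receptor signaling, stood at 303, 260 and 433 CPM with LPA and at 44.1, 185 and 84.3 CPM with vehicle (log2 fold change 1.62, edgeR adjusted p = 0.986). The long noncoding RNA 2610307P16Rik stood at 267, 296 and 255 CPM with LPA and at 121, 80.9 and 0 CPM with vehicle (log2 fold change 2.00, and 3.34 with sub-cluster 3 left out). Pakap stood at 196, 197 and 242 CPM against 121, 92.4 and 105 CPM (log2 fold change 0.95). For none of the 3 did the groups overlap. When Sp8 and Sp9 were not required, 7965 genes were tested in the 361 nuclei and 2610307P16Rik was the 1 gene called (log2 fold change 1.74, SE 0.24, edgeR adjusted p = 0.0171), at 219, 229 and 149 CPM with LPA and 48.3, 45.4 and 74.3 CPM with vehicle, higher in 3 of 3 LPA libraries. That setting was added after the data were seen and includes the 79 nuclei. The log2 fold changes of the other 4 genes were smaller there and not called, at 0.40 for Gfra1, 0.20 for Erbb4, 0.38 for Ubash3b and 0.26 for Pakap.

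Among the 5 genes of lowest p in the other direction were Hs3st2, Pdzrn4, Rarb and Tmem161b. Hs3st2, a heparan sulfate sulfotransferase, stood at 53.4, 10.4 and 38.2 CPM with LPA and at 121, 139 and 379 CPM with vehicle (log2 fold change -3.01, SE 0.67, edgeR adjusted p = 0.896). All 3 LPA libraries lay below all 3 vehicle libraries. Rarb stood at 35.6, 109 and 12.7 CPM with LPA and at 177, 173 and 379 CPM with vehicle (log2 fold change -1.89). Pdzrn4 and Tmem161b had log2 fold changes of -1.76 and -1.57, and the groups overlapped for none of these 4 genes. Of the 90 Pdzrn4 UMIs, 23 lay in 1 nucleus of vehicle replicate 2, and its log2 fold change was -0.79 with sub-cluster 3 left out. That of Rarb was -3.36 without LPA replicate 2. Without requiring Sp8 or Sp9, the log2 fold changes were -0.69 for Hs3st2, -0.27 for Rarb, -0.07 for Pdzrn4 and -0.02 for Tmem161b, and none was called.

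**Figure D4:**
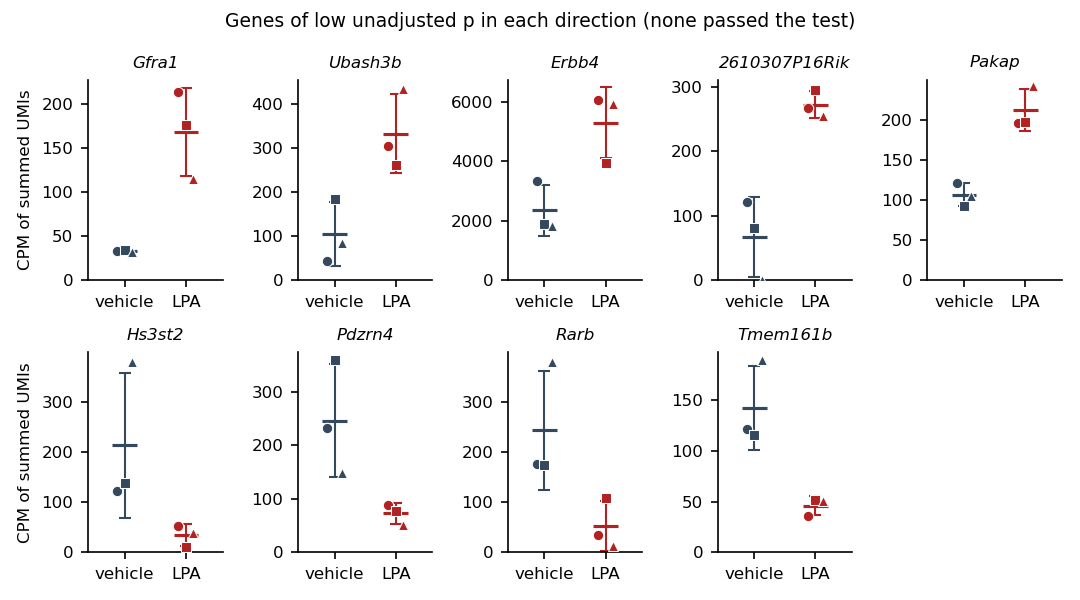
CPM of 9 of the genes of lowest unadjusted p in each library (points; the shape gives the replicate number), with the mean (horizontal bar) and SD (error bar) of 3 libraries per condition. The groups did not overlap for any of the 9, which were chosen for their low p, and none passed the adjusted threshold.

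Gene lists were described by their counts, beside a median log2 fold change of -0.01 over all 1903 genes, of which 48.8% were above 0. No member of any list was called. Of 26 maturation and synapse genes tested, 21 were lower with LPA (median -0.24, range -0.90 to 0.20). Of these, 4 had an unadjusted p under 0.05, beside 79 of all 1903 genes (4.15%). Camk2a stood at 267, 192 and 293 CPM with LPA and at 452, 497 and 401 CPM with vehicle (log2 fold change -0.90, SE 0.31, edgeR adjusted p = 0.986), and its groups did not overlap. Camk2b, its partner subunit (-0.79), Grin1, the obligatory NMDA receptor subunit (-0.87), and Kcnq5, a potassium channel (-0.79), were the other 3. The groups overlapped for Grin1 and Kcnq5 and did not for Camk2b. Nrxn3 (0.17) and Rbfox3 (-0.30) differed by less than their SE of 0.26 and 0.33.

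Thinned shares of Rbfox3 pointed the same way without passing a test. It was found in 33.3%, 47.8% and 58.3% of selected nuclei with LPA and in 54.5%, 87.5% and 64.3% with vehicle, so the groups overlapped. The means were 46.5% ± 12.6 and 68.8% ± 16.9 (SD, n = 3, exact permutation p = 0.2, adjusted p = 1 over 10 lineage genes). The difference of -22.3 points was -12.9 without vehicle replicate 2, and -2.74 (exact permutation p = 1) in the 57 nuclei that could be thinned to 4000 UMIs. Meis2 was found in 84.9% ± 3.44 with LPA and 86.7% ± 13.7 with vehicle, Tshz1 in 48.2% ± 8.35 and 50.3% ± 10.7, and Pax6 in 12.8% ± 11.4 and 8.93% ± 7.78 (adjusted p = 1 each in the exact permutation test, n = 3). None of the 10 lineage genes passed the test.

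Of 8 olfactory bulb lineage genes tested, 7 were higher with LPA (median 0.27), but each by less than 2 SE. Pbx3 had the largest change (0.78, SE 0.42), followed by Etv1 (0.61, SE 0.51), while Synpr was lower (-0.45, SE 0.60). The Pbx3 value was 0.49 to 1.15 with 1 library left out. The 4 cortical interneuron genes tested were higher (median 0.69): Erbb4, Adarb2 (0.72), Sox6 (0.67) and the neurogenic factor Npas3 (0.64). Adarb2 stood at 3491, 2520 and 4460 CPM with LPA and at 2581, 1836 and 1845 CPM with vehicle, and its groups overlapped. These 2 lists and the maturation list share the libraries, so their directions are not separate evidence.

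Of 24 migration genes tested, 12 were higher and 12 lower (median -0.03). Nrg1, the neuregulin ligand of ERBB4, stood at 855, 930 and 599 CPM with LPA and at 1180, 1732 and 1433 CPM with vehicle (log2 fold change -0.89, SE 0.33, edgeR adjusted p = 0.986). Its groups did not overlap, as for its receptor gene in the other direction. Non-overlap was found for 4 of the 24 migration genes, beside 187 of all 1903 genes (9.83%). Robo2, a receptor for the repellent Slit proteins, had a log2 fold change of 0.70 (SE 0.55) and Robo1 one of -0.44 (SE 0.49). Of 11 GABA genes tested, 5 were higher and 6 lower (median -0.01), with Gad1 at -0.10 and Gad2 at 0.06.

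Of 3 LPA pathway genes tested, Plppr4 stood at 107, 98.7 and 102 CPM with LPA and at 199, 139 and 200 CPM with vehicle (log2 fold change -0.84, SE 0.33, edgeR adjusted p = 0.986), and Plppr1 and Plpp3 were at -0.31 and 0.10. Of 28 axon guidance and adhesion genes, 13 were higher and 15 lower (median -0.02), and the most abundant, Lsamp, stood at 4097, 6213 and 5836 CPM with LPA and 7148, 5532 and 2909 CPM with vehicle. Both sterol synthesis genes tested were lower (median -0.64) and neither passed the test.

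No interferon, apoptosis, immediate-early or ribosomal gene of the lists had enough counts to be tested. In sums of CPM, the interferon list stood at 71.3, 83.1 and 140 with LPA and 66.2, 92.4 and 73.8 with vehicle, the apoptosis and p53 list at 481, 436 and 357 against 265, 427 and 464, and the immediate-early list at 143, 286 and 255 against 143, 474 and 169. The ribosomal protein list stood at 926, 753 and 867 with LPA and 1092, 797 and 675 with vehicle. The groups overlapped for each of the 4 lists. Mitochondrial genes summed to 160, 275 and 1236 CPM with LPA and 585, 1282 and 1296 CPM with vehicle.

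The last comparison asked whether the LPA effect in the selected nuclei differed from that in other neurons of the same libraries. Against striatal projection neurons, 5 of 10804 genes (0.0463%) were called by edgeR for a difference of the 2 log2 fold changes, and DESeq2 called none (lowest adjusted p = 1.0, 201 genes under 0.05 unadjusted, against 460 with edgeR). For Dnah12, Ptgds and Dach2, 35 of 38, 71 of 104 and 36 of 74 UMIs lay in 1 nucleus. Grik1, a kainate receptor subunit, stood at 677, 343 and 1007 CPM with LPA and 695, 69.3 and 232 CPM with vehicle in the selected nuclei, and at 98.7, 37.4 and 90.6 against 133, 59.9 and 122 CPM in striatal neurons. The difference was 1.67 (SE 0.38, edgeR adjusted p = 0.0342), although the selected nuclei of both conditions overlapped. With Scrublet calls left out it was 0.94 and was not called, and 1 gene was called in all. It was also not called without LPA replicate 2 (1.59), LPA replicate 3 (1.51), vehicle replicate 2 (1.34) or vehicle replicate 3 (1.40).

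Gm45323, a predicted gene, stood at 160, 109 and 204 CPM with LPA and 11.0, 11.6 and 73.8 CPM with vehicle in the selected nuclei, where 20 nuclei held a UMI, and at 48.0, 44.4 and 43.5 against 54.7, 60.6 and 77.6 CPM in striatal neurons. Its difference of 2.69 (SE 0.59, edgeR adjusted p = 0.0306) was not called without LPA replicate 3, without vehicle replicate 1, without vehicle replicate 2 or with Scrublet calls left out (2.46, 2.41, 2.33 and 2.70). Against the Sp8/Sp9-negative nuclei, edgeR called 0 of 5581 genes (0%) with 189 under 0.05 unadjusted, and DESeq2 called 0 with 64. The lowest p there belonged to Hs3st2 and Gfra1, whose log2 fold changes in the Sp8/Sp9-negative nuclei were -0.13 and 0.04 (edgeR adjusted p of the difference 1.00 each). The selected and Sp8/Sp9-negative nuclei thus showed no called difference in their response to LPA at this depth.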

How the data were processed

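Single-nucleus libraries of 6 brains were analysed. The authors made the deposited UMI count matrices of 32285 genes with Cell Ranger 4.0.0 on a pre-mRNA mm10 reference, without normalization. Barcodes with at least 300 genes and at most 1% mitochondrial UMIs were kept (60724 of 63383). The members and gene lists were chosen with earlier results of these data known. Counts were summed per library and tested with edgeR 4.0.16 (filterByExpr, TMM, R 4.3.3), leaving out the 14 genes of the rule, and called at an adjusted p of 0.05 and a log2 fold change of 0.25. A minimum of 10 nuclei per library was planned and lowered to 8, since LPA replicate 1 held 9 and vehicle replicate 2 held 8. The test with cycling nuclei was not run for the same reason. The procedure was tested on simulated data of 1622 genes. It recovered 19.4% of genes with a log2 change of 1, 83.6% of those with 2 and 71.2% of those with 3. It made 5 false calls. By sex-linked genes, 2 LPA libraries and 1 vehicle library were female. Shares were compared by exact permutation over libraries. Sub-clusters came from scanpy 1.11.5 (15 principal components, 15 neighbors) and leidenalg 0.10.2 (resolution 0.6). Named genes were the 5 of lowest p per direction, up to 2 of highest CPM per list, the Lpar genes, Rbfox3, genes of largest ratios and genes called in a difference, and others from the lists were chosen after their values were seen. Alternatives were DESeq2 1.42.0, RLE factors, no filter, doublet removal, depth limits, other thresholds, a replicate block, sex as a covariate and leaving out each library. List ratios to other populations used a pseudocount of 20 CPM. Some genes are not reported here. Gene positions come from GENCODE M21 (GRCm38).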

Additional observations from a re-analysis of the deposited data

Results flagged for a closer look

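The LPA effect differed between the selected nuclei and striatal projection neurons for 5 genes by edgeR's test of the difference, and for none by DESeq2. The difference of log2 fold changes was 10.0 for Dnah12, with 35 of its 38 UMIs in 1 nucleus of LPA replicate 3. It was 2.69 for Gm45323, whose UMIs came from 20 nuclei. It was 1.67 for Grik1, with 67 of 274 UMIs in 1 nucleus of LPA replicate 3. The log2 fold change of Grik1 in the selected nuclei alone was 0.99, and 0.50 to 2.12 with 1 library left out. The difference was -3.01 for Ptgds, with 71 of 104 UMIs in 1 nucleus of vehicle replicate 2, and without that library it was 0.44. It was -2.81 for Dach2, with 36 of 74 UMIs in 1 nucleus of vehicle replicate 1, and without that library it was -1.34 and not called.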

How the results depend on the processing

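The groups hold 3 libraries each and 8 to 25 selected nuclei per library, so no share could reach p under 0.1, and the median SE of a log2 fold change was 0.37. The main tests did not pair the libraries by replicate number. Deviations from the group means correlated weakly between libraries of the same number (0.143, 0.199 and 0.0924), although 6 of 6 libraries correlated best with their own number. Whether the numbers mark pairs was not settled by these values. With a replicate block, 0 genes were called and 96 were under 0.05 unadjusted. The paired differences of the 5 shares and ratios gave exact sign-flip p of 0.75, 1, 1, 0.75 and 0.75 (smallest possible 0.25).

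The difference in share stayed positive in its 16 alternatives and passed the test in none. Some of the 16 hold too few nuclei to show stability. The stricter rule chose 1 nucleus, in LPA replicate 2, leaving out nuclei with other markers kept 10, and thinning kept 11. Leaving out 1 library gave 0.0141 to 0.0831 percentage points, the lowest without LPA replicate 2. The log2 ratio to striatal neurons stayed positive (0.07 to 0.84). The share among Dlx nuclei gave -0.167 to 1.37 with 1 library left out, negative without LPA replicate 2, and 2.91 (exact permutation p = 0.1) in the 11 nuclei chosen after thinning to 2000 UMIs. The ratio to cycling nuclei gave -0.118 under an upper limit on UMIs and -0.31 to 0.56 with 1 library left out, and that to Sp8/Sp9-negative nuclei gave 0.0936 without Scrublet calls and -0.68 to 0.0821. The cause of these reversals was not tested.

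No gene was called with 1 library left out (0 to 0). Without a filter on low counts 16 of 16269 genes were called, among them Ptgds and Dnah12 with 90.4% and 92.1% of their UMIs in 1 library, but also Hs3st2, 2610307P16Rik, Gfra1 and Rarb with 53.7%, 51.8%, 53.1% and 39.6%. The cause of these calls was not tested. Without requiring Sp8 or Sp9, 1 gene was called. The difference from striatal neurons gave 1 call without Scrublet calls, 0 with DESeq2 and 5 to 9 with 1 library left out, and that from Sp8/Sp9-negative nuclei gave 4 calls without a filter and 0 to 0 with 1 library left out. Ptgds gave a difference of 0.90 without Scrublet calls and -9.69 to 0.44 with 1 library left out.

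Of 318 alternatives for the log2 fold changes of 20 genes, 308 kept direction and side of the threshold. Meis2 turned to -0.0617 and Tshz1 to -0.25 with equal numbers of nuclei, Rbfox3 to 0.0295 under the limit on UMIs, and Rbfox3 and Tshz1 to 0.0661 and -0.18 without requiring Sp8 or Sp9. Of 80 alternatives for the 10 lineage shares, 70 kept their direction. Thinning to 4000 UMIs gave differences of 1.14 points for Prox1 and 10.1 for Tshz1, and no thinning gave -5.84 for Nr2f2 and -3.11 for Pax6. Leaving out 1 library gave -8.81 to 4.83 for Meis2, -5.75 to 4.07 for Tshz1, -21.6 to 0.275 for Foxp2 and -0.595 to 10.3 for Pax6.

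A stricter rule (1 nucleus), thinning before selection (11 nuclei) and leaving out nuclei with other markers (10 nuclei) left libraries with none, so that ratios and gene tests could not be fitted.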

Other observations

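The same 235 barcodes occurred in all 6 libraries. Their median depth was 754 to 824 UMIs per library, against 3756 to 4648.5 over all barcodes, and their median mitochondrial share was 6.32% to 6.83%. They were led by the bone and connective tissue genes Col1a1 (6119 CPM against 52.1 over all barcodes), Col1a2 (7862 against 83.3) and Bglap (2576 against 12.6), by Spp1 and Mgp, by the neutrophil gene S100a9 (2168 against 10.5) and by Scgb1c1 (2918 against 12.7). The quality filter left 2 to 5 of them per library, and none was a selected nucleus. Of the barcodes of selected nuclei, 3 occurred in another library and none was selected in more than 1.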
